A study of Saccharomyces cerevisiae with 6 samples.

Results

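The Zap1 calling cards library holds 16019 of the 203761 transposon insertions recorded for 6 transcription factors (TFs) of budding yeast, or 7.86% of them. The insertions were taken as the lines of the Zap1 library and compared with the 187742 insertions of the other 5 libraries pooled, on all 16 chromosomes, with most attention to chromosomes VI to XVI. In this assay each TF carries Sir4, a component of silent chromatin to which the integrase of the Ty5 retrotransposon binds, and Ty5 therefore integrates close to where the TF sits on DNA. Each of the 6 libraries, for Eds1, Ino4, Leu3, Rgt1, Sfp1 and Zap1, was made in strain BY4741 of genotype sir4D, which lacks its own SIR4 gene. Every strain carried its TF joined at its C-terminus to Sir4 on 1 plasmid, and a barcoded Ty5 with a HIS3 marker under the GAL1/10 promoter on another. Transposition took place on galactose medium in the progeny of a single clone, and cells with an inserted copy were then selected. There is 1 library per TF, so every p-value below compares libraries and not conditions, and no value has a replicate check. The pooled background holds the targets of 5 other TFs, and a library of unfused Sir4 was not analysed here.

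Zap1 is the activator that budding yeast uses when zinc is scarce. It binds zinc-responsive elements in the promoters of genes for zinc uptake, for release of zinc from the vacuole and for sparing zinc, and it is known to activate its own gene. Its best known targets are ZRT1 and ZRT2, the plasma membrane zinc transporters of high and low affinity, and ZRT3, which carries zinc out of the vacuole.

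The Zap1 share exceeded that of the other libraries in 36 windows of 1 kb, or 0.821% of the 4385 windows with at least 10 insertions over the 6 libraries (one-sided Fisher's exact test, Benjamini-Hochberg adjusted p under 0.05). Of these windows 31 lay on chromosomes VI to XVI and 5 on I to V, and they formed 34 separate places. In all 36 the Zap1 share was higher than in each of the other 5 libraries taken alone. The windows were called against the pool of these same libraries, so this is partly built in. The unadjusted p was under 0.05 in 339 windows, or 7.73%, and the Zap1 share was lower at an adjusted p under 0.05 in 69 windows, or 1.57%. The median ratio over all windows tested was 1.02. The windows called with Zap1 held 1756 of its insertions, or 10.96% (95% exact interval 10.48 to 11.46), against 0.920% of the pooled others, and the 6 with the largest excess alone held 8.23% against 0.313%. These shares describe windows that the same counts chose. By the same test 41 windows were called for Eds1, 32 for Ino4, 181 for Leu3, 88 for Rgt1 and 170 for Sfp1.

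The window with the largest excess lay at the promoter of ZRT1 on chromosome VII, positions 20001 to 21000 of the files. It held 576 Zap1 insertions, against 18 in the Eds1 library, 6 in Ino4, 19 in Leu3, 4 in Rgt1 and 21 in Sfp1. As shares these were 359.6 of every 10000 insertions for Zap1 and 1.34 to 5.87 for the others. This single window took 3.60% of the library, and its share was 99.3 times that of the pooled others (95% interval 77.1 to 130, counting error only, as are all intervals below). No other library came near the Zap1 share here. The second window, at ZRT2 on chromosome XII (404001 to 405000), held 326 Zap1 insertions, and 8, 7, 22, 7 and 25 in Eds1, Ino4, Leu3, Rgt1 and Sfp1, a ratio of 55.4 (42.6 to 72.9). Both plasma membrane transporters of the zinc uptake system headed the list, and the next window held 150.

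**Figure D1:**
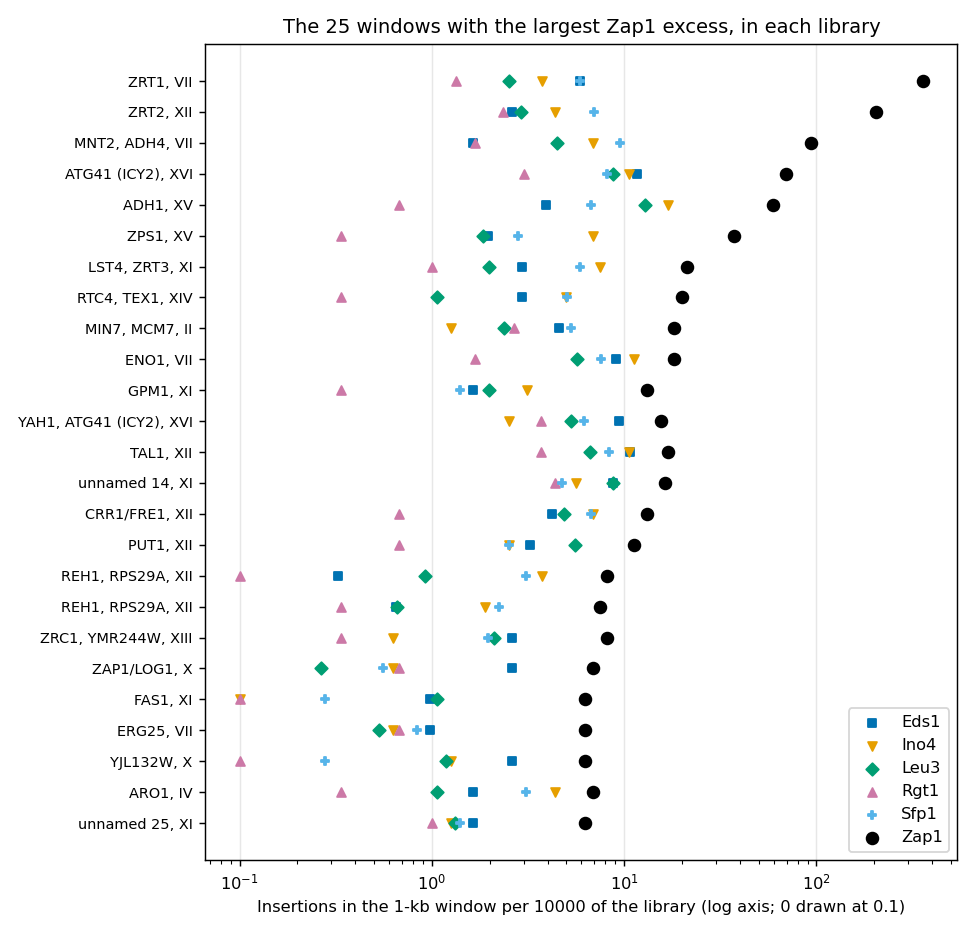
Insertions in each of the 25 windows with the largest Zap1 excess, per 10000 insertions of the library (log axis, values of 0 drawn at 0.1); each row is a window labelled by the genes whose upstream region or body it overlaps, and each symbol a library. The Zap1 points lie to the right of all the others in every row, at 359.6 for ZRT1 and 203.5 for ZRT2 but at 6.24 to 8.12 in the last 9 rows.

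Other transporters of zinc were called at far lower counts. ZRT3 shares its upstream window on chromosome XI (118001 to 119000) with LST4, whose product acts in the trafficking of amino acid permeases. The window held 34 Zap1 insertions and 9, 12, 15, 3 and 21 in Eds1, Ino4, Leu3, Rgt1 and Sfp1, a ratio of 6.64 (4.23 to 10.3, adjusted p = 5.71e-12 by Fisher's exact test). ZRC1, on chromosome XIII (756001 to 757000), encodes the transporter that loads zinc into the vacuole. Its window held 13 Zap1 insertions against 8, 1, 16, 1 and 7, a ratio of 4.62 (2.23 to 9.01). Of 17 alternatives 11 kept the call of this window. With only insertions of at least 2 reads, neither the window nor the upstream region of ZRC1 was called (3.83 for both). FET4, on the same chromosome (914001 to 915000), encodes a low-affinity iron transporter that also takes up zinc. It had 9 Zap1 insertions against 3, 0, 6, 0 and 5, a ratio of 7.53 (2.88 to 18.7). The shares at ZRC1 and FET4 thus rest on 13 and 9 insertions, where those at ZRT1 and ZRT2 rest on 576 and 326.

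The third window was the shared upstream region of MNT2 and ADH4 on chromosome VII (14001 to 15000), about 6 kb from the ZRT1 window. ADH4 encodes an alcohol dehydrogenase made in zinc-limited cells, and MNT2 a mannosyltransferase. The window held 150 Zap1 insertions, and 5, 11, 34, 5 and 34 in Eds1, Ino4, Leu3, Rgt1 and Sfp1, a ratio of 19.8 (15.1 to 26.0). The windows next to both places held few insertions of any library. Those before and after ZRT1 held 6 Zap1 insertions against 16 (ratio 4.39, 1.41 to 11.8) and 3 against 1 (35.2, 2.82 to 1846), and those before and after MNT2 and ADH4 held 2 against 5 and 2 against 10. The window after ZRT1 and the one before MNT2 and ADH4 were under the minimum of 10, and the other 2 were tested and not called.

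A further zinc-responsive alcohol dehydrogenase gene, ADH1, is known for an intergenic transcript, ZRR1, that Zap1 starts upstream of its promoter. The window upstream of ADH1 on chromosome XV (161001 to 162000), which also overlaps YOL085C, held 95 Zap1 insertions and 12, 27, 97, 2 and 24 in Eds1, Ino4, Leu3, Rgt1 and Sfp1. Its ratio was 6.87 (5.28 to 8.91), and the median position was 161537. The nearer 700 bp before ADH1 held 5 Zap1 insertions against 49 in the others, a ratio of 1.20 (0.372 to 2.99), and were not called. Here the raw counts of Leu3 and Zap1 were nearly equal, but the Leu3 library is the larger of the 6, and its share was 12.8 per 10000 against 59.3 for Zap1.

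ZPS1 encodes a cell surface protein made under zinc deprivation. Its window on chromosome XV (34001 to 35000) held 60 Zap1 insertions and 6, 11, 14, 1 and 10 in the other libraries in the same order, a ratio of 16.7 (11.1 to 25.5). ATG41, also called ICY2, acts in autophagy, and 2 adjacent windows were called at it on chromosome XVI. The one from 75001 to 76000 held 111 Zap1 insertions against 36 in Eds1, 17 in Ino4, 66 in Leu3, 9 in Rgt1 and 29 in Sfp1, a ratio of 8.29 (6.44 to 10.6). The one before it, from 74001 to 75000, held 25 against 106 in the others pooled, a ratio of 2.76 (1.71 to 4.31). The background at ATG41 was thus the highest of the first 4 windows, 8.36 per 10000 over the pooled libraries against 3.62 at ZRT1.

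The window shared by RTC4 and TEX1, the latter a component of an mRNA export complex, lay on chromosome XIV (169001 to 170000). It held 32 Zap1 insertions and 9, 8, 8, 1 and 18 in the others, a ratio of 8.52 (5.23 to 13.8, adjusted p = 2.3e-13 by Fisher's exact test). The window at ZAP1 itself, on chromosome X (333001 to 334000), held 11 Zap1 insertions and 8, 1, 2, 2 and 2 in the others, a ratio of 8.60 (3.57 to 20.0). Of the 15 insertions of the other libraries 11 lay outside the upstream region that ZAP1 shares with LOG1, where 10 Zap1 insertions stood against 4, a ratio of 29.3 (8.45 to 128). With so few insertions in the background, leaving out 1 library moved this ratio to 49.0 (without Eds1), 49.3 (without Rgt1) or 17.5 (without Leu3), and that of the window to 15.4 without Eds1, all still called. YJL132W, a further gene of the zinc list, had 10 Zap1 insertions in its window on chromosome X (161001 to 162000), against 8, 2, 9, 0 and 1, a ratio of 5.86 (2.45 to 13.1), which fell to 1.99 and was not called in windows of 2000 bp.

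Around the main places the excess was steepest near the median Zap1 position. The same insertions chose these places and set that median, so an excess at the centre is built in and its width is a description. At ZRT1 the ratio was 255 (150 to 473) within 100 bp of the median Zap1 position, 20616, then 169 at 100 to 200 bp, 56.9 at 200 to 300 bp, 13.5 (7.77 to 23.4) at 300 to 500 bp and 8.60 (3.57 to 20.0) at 500 to 1000 bp. It was 0.858 (0.170 to 2.69) at 1000 to 2000 bp. Over the 4 places outside the pair on chromosome VII, namely ZRT2, ATG41, the one upstream of ADH1 and ZPS1, the ratio was 37.7 within 100 bp, 11.6 at 100 to 200 bp, 3.87 at 200 to 300 bp and 1.89 at 300 to 500 bp. At 500 to 1000 bp it was 1.47 (0.706 to 2.75). Farther out it did not settle at 1: it was 1.83 (1.05 to 3.03) at 1000 to 2000 bp, 1.27 (0.844 to 1.84) at 2000 to 5000 bp, 0.989 (0.698 to 1.37) at 5000 to 10000 bp and 1.69 (1.31 to 2.15) at 10000 to 20000 bp. The place with the tightest cluster of the 6 was ZPS1, where 70.0% of the window's Zap1 insertions lay in 100 bp. At ZRT1 the fullest 100 bp held 28.5%, and the profile had more than 1 summit.

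**Figure D2:**
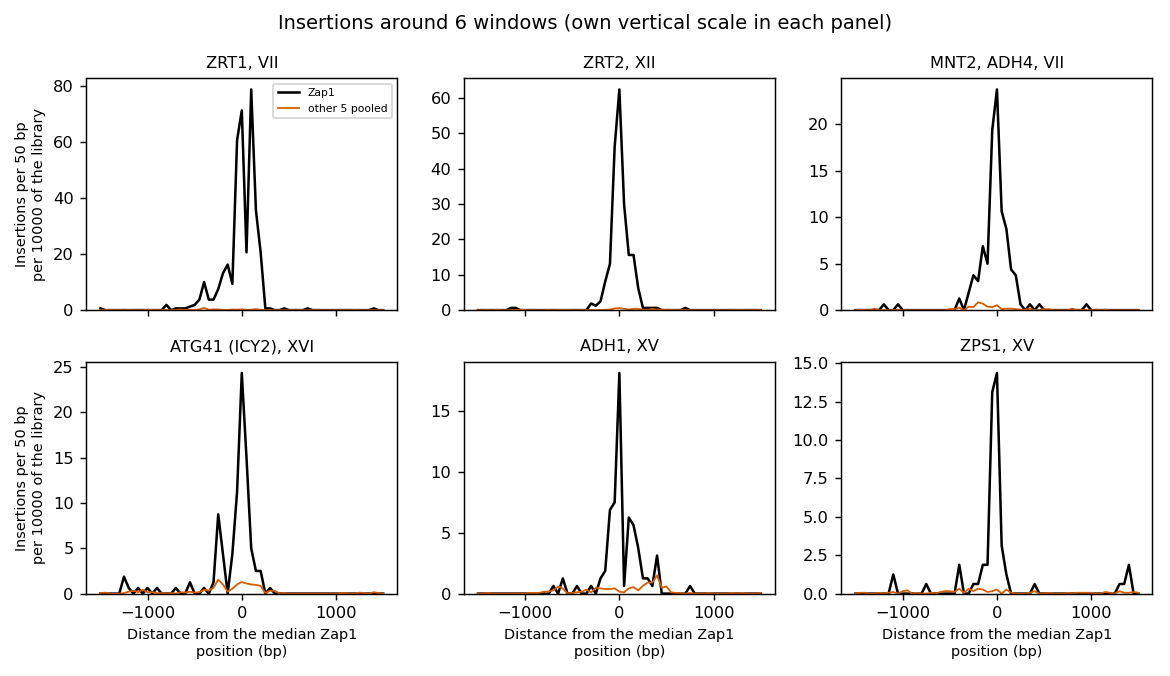
Insertions per 50 bp, per 10000 of the library, against distance from the median Zap1 position (bp) at the 6 windows with the largest excess, for Zap1 (black) and the other 5 libraries pooled (orange); each panel has its own vertical scale. The Zap1 curves are highest within 200 bp of the median position and low beyond 500 bp, where the Zap1 share at ZRT1 was still 8.60 times that of the others at 500 to 1000 bp; at ATG41 and upstream of ADH1 the pooled curve is itself above 0.

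The other windows among the 25 with the largest excess were at genes outside the zinc lists, and most had modest ratios. On chromosome II (625001 to 626000) the window shared by MIN7 and MCM7, a subunit of the replicative helicase, held 29 Zap1 insertions and 14, 2, 18, 8 and 19 in Eds1, Ino4, Leu3, Rgt1 and Sfp1, a ratio of 5.57 (3.45 to 8.81). Among the 25, 2 windows were at genes of glycolysis. GPM1, phosphoglycerate mutase, on chromosome XI (164001 to 165000), had 21 against 5, 5, 15, 1 and 5, a ratio of 7.94 (4.34 to 14.3). ENO1, enolase, on chromosome VII (1000001 to 1001000), had 29 against 28, 18, 43, 5 and 27, a ratio of 2.81 (1.81 to 4.24). At ENO1 the highest of the other libraries was Ino4, at 11.3 per 10000 against 18.1 for Zap1. A list of 22 genes of glycolysis and ethanol metabolism was written after these calls were seen. Of its 18 upstream regions tested 2 were called, those of GPM1 and ENO1, where 0.981% of all regions tested were, and the median ratio of the 18 was 1.34 against 1.07 over all regions.

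Neighbouring windows at REH1 and RPS29A on chromosome XII (897001 to 898000 and 898001 to 899000) held 12 and 13 Zap1 insertions against 19 and 25 in the pooled others, ratios of 7.40 (3.28 to 16.1) and 6.09 (2.86 to 12.4). REH1 acts in the maturation of the large ribosomal subunit, and RPS29A encodes a protein of the small one. FAS1, the beta subunit of fatty acid synthase, on chromosome XI (100001 to 101000), had 10 against 12, a ratio of 9.77 (3.78 to 24.7). Without Leu3 in the background the ratio was 17.5, and in windows shifted by 500 bp it was 1.55 and not called (adjusted p = 0.831, Fisher's exact test). It is a gene of the Ino4 list, but the Ino4 library had 0 insertions in this window, where a count of 0 allows up to 1.88 per 10000. ERG25, which acts in sterol synthesis, on chromosome VII (610001 to 611000), had 10 against 13, a ratio of 9.01 (3.54 to 22.3), but 1.66 and not called in the shifted windows. In windows of 2000 bp the place at RPS29A was not called (2.66), while that at REH1 was (6.39). Those windows are also cut at 898000. All 12 Zap1 insertions of the REH1 window lay from 897901 to 898000, and 7 of the 13 at RPS29A from 898001 to 898100. The windows shifted by 500 bp joined the places, with a ratio of 8.32, which was called.

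The remaining 6 of the 25 had adjusted p-values of 0.017 or more. They were at TAL1, transaldolase (27 Zap1 insertions against 141 in the others, ratio 2.24), at CRR1 and FRE1, the latter a ferric reductase (21 against 87, 2.83), and at PUT1, proline oxidase (18 against 67, 3.15), all on chromosome XII. One was at ARO1, of the shikimate pathway, on chromosome IV (11 against 32, 4.03). The other 2 were on chromosome XI, from 225001 (10 against 25, 4.69) and from 230001 (26 against 132, 2.31), where the gene table could not be placed on the files and no gene was named. These calls depended on which libraries formed the background. Without Rgt1 none of the 6 was called (ratios 4.48, 2.15, 2.05, 2.44, 2.73 and 3.50 for 225001, 230001, TAL1, CRR1 and FRE1, PUT1 and ARO1). TAL1 and ARO1 were also lost without Leu3 (2.08 and 3.21), ARO1 without Eds1 (3.99) and 230001 without Sfp1 (2.15), while PUT1 moved to 5.04 without Leu3. The ARO1 window, with an adjusted p of 0.048, was among the 3 nearest inside the threshold, and the nearest outside was that of GCR1 on chromosome XVI, with 8 against 17 and an adjusted p of 0.055.

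Of the 36 windows 11 held fewer than 10 Zap1 insertions. Beside FET4 they were at RPG1, ALD6, PFY1, PGI1, MDM36, ACT1, ATP4, and at the pairs NGK1 and VMA6, LSM3 and MRPL4, and ADE8 and SIZ1, with 6 to 8 Zap1 insertions each. Their ratios ran from 6.70 to 20.5, but the interval at RPG1, a translation initiation factor, where 7 Zap1 insertions met 4, was 5.21 to 95.5. At PGI1, glucose-6-phosphate isomerase, 6 met 4.

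Upstream regions gave a second view by gene. A region ran from the start of a coding gene to the next annotated gene, at most 700 bp, and 26 of the 2650 tested (0.981%) were called. They belonged to 28 genes at 21 separate places, and 24 of the 26 were on chromosomes VI to XVI. The median ratio over all regions tested was 1.07, and 48 regions (1.81%) were lower. ZRT1 again led, with 543 Zap1 insertions and 9, 4, 12, 4 and 11 in Eds1, Ino4, Leu3, Rgt1 and Sfp1, a ratio of 159 (115 to 225). ZRT2 had 316 against 6, 6, 15, 4 and 20, a ratio of 72.6 (53.9 to 99.6), and ADH4 had 133 against 4, 5, 14, 1 and 22, a ratio of 33.9 (24.1 to 48.5). The opposite gene of a divergent pair was often called with it, since the regions overlap: MNT2 had a ratio of 21.2, TEX1 of 8.09, LST4 of 6.93 and MIN7 of 5.86.

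Some regions had no called window. GCR1, an activator of glycolytic genes, had 17 Zap1 insertions upstream against 12, 3, 24, 0 and 7 in the other libraries, a ratio of 4.33 (2.33 to 7.70). VEL1, on chromosome VII, had 7 against 11, a ratio of 7.46 (2.45 to 21.1, adjusted p = 0.030 by Fisher's exact test). CSS3, on chromosome XV, had 9 against 13, a ratio of 8.11 (3.06 to 20.5), and YCS4, a condensin subunit, on chromosome XII, had 7 against 12, a ratio of 6.84 (2.28 to 18.8, adjusted p = 0.041 by the same exact test). The calls of VEL1 and YCS4 were lost without Leu3 in the background (7.00 and 6.13) and without Rgt1 (6.90 and 5.75), and that of FET4 was lost without Leu3 (3.14). Leaving out 1 library also moved the ratio at CSS3 to 17.1 (without Sfp1), upstream of FAS1 from 7.53 to 15.8 (without Leu3) and at ADH4 to 52.6 (without Sfp1), all still called. With regions of at most 500 bp the calls of GCR1 and LST4 were lost (2.60 and 3.91). In the other direction, leaving out Sfp1 raised the number of regions called from 26 to 46.

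Among 13 genes of zinc transport 11 had upstream regions with at least 10 insertions, and 5 were called: ZRT1, ZRT2, ZRT3, ZRC1 and FET4. Over all regions tested 0.981% were called and the median ratio was 1.07. Of the 11, 8 had a ratio over 1, and the median was 4.23. A ratio over 1 was found in 1394 of all 2650 regions tested. The region of ZRG17, part of the zinc transporter of the endoplasmic reticulum, had 4 Zap1 insertions against 8, a ratio of 5.86 (1.29 to 21.9), and did not pass (adjusted p = 0.309, Fisher's exact test). The regions of IZH1, IZH2, IZH3 and IZH4, membrane proteins linked to zinc homeostasis, had 6, 3, 1 and 1 Zap1 insertions, with ratios of 1.80, 1.47, 0.451 and 0.451. YKE4 had 1 against 16, and COT1 and MSC2 were under the minimum. The difference between the called members of this list and the others was not tested.

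Among 22 further genes that respond to zinc through Zap1, 18 could be tested and 7 were called, again beside 0.981% of all regions: ADH4, ZAP1, ZPS1, YJL132W, RTC4, VEL1 and ATG41. Their upstream regions had a median ratio of 2.73, and 15 of the 18 were over 1, where 1394 of all 2650 regions tested were. DPP1, a phosphatase of phospholipid metabolism, had 9 Zap1 insertions against 32, a ratio of 3.30 (1.38 to 7.07), and did not pass (adjusted p = 0.191, Fisher's exact test). TSA1, a peroxiredoxin, had 5 against 21, a ratio of 2.79 (0.822 to 7.60), and MCD4 had 5 against 22, a ratio of 2.66. CTT1, the cytosolic catalase, had 5 against 64 and ADH3, a mitochondrial alcohol dehydrogenase, 8 against 98, ratios of 0.916 and 0.957. The intervals of TSA1, MCD4, CTT1 and ADH3 include 1, and that of DPP1 does not. All 8 regions of a list of 9 Zap1 targets given by the study were called, but that list was chosen partly on these libraries and is not independent evidence. The zinc transport list and that of the further zinc genes were written with earlier results of these data known. Their counts are not independent evidence either.

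**Figure D3:**
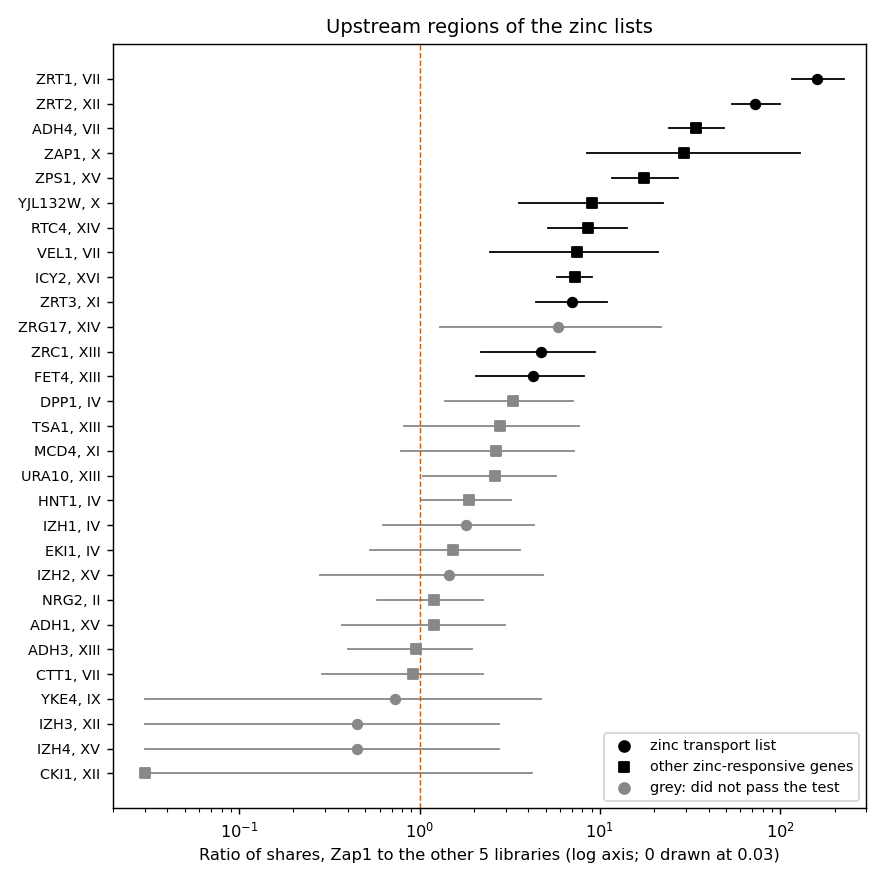
Ratio of the Zap1 share to that of the other 5 libraries (log axis) with its exact 95% interval, for each upstream region of the zinc transport list (circles) and of the other zinc-responsive genes (squares) with at least 10 insertions; black passed the test, grey did not, and a ratio of 0 is drawn at 0.03. The 12 called regions run from 4.23 at FET4 to 159 at ZRT1, and ZRG17 at 5.86 lies among them without passing.

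Regions of Leu3 and Rgt1 genes mostly had a lower share in the Zap1 library than in the pooled others. Of 10 tested regions of Leu3 genes, such as LEU1 of leucine synthesis, 8 were lower in Zap1 and 0 higher, where 1.81% of all regions were lower and 0.981% higher. Of 13 tested regions of Rgt1 genes, most of them for hexose transporters, 10 were lower and 0 higher. The window upstream of HXT1 on chromosome VIII held 3 Zap1 insertions against 2933 of Rgt1 and 356 of Eds1. Leu3 and Rgt1 genes are targets of libraries that form the background of the comparison. The lower calls were therefore largely built in and are no separate result about Zap1. Of 9 tested regions of Ino4 genes 1 was called, that of FAS1, beside the 0.981% of all regions, and 0 were lower.

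The Zap1 lines run through the chromosomes 2 times, with 8758 insertions in the first run and 7261 in the second. No source says what separates the runs, so they serve as a limited check within the library and do not count as replicates. All 36 windows had a higher share than the pooled others in both runs. The windows were called on the 2 runs together, so this is largely built in. At ZRT1 the first run held 327 insertions and the second 249, ratios of 103 and 94.7. At ZRT2 they held 185 and 141 (57.5 and 52.8), at MNT2 and ADH4 85 and 65 (20.5 and 18.9), and at ATG41 60 and 51 (8.19 and 8.40). Upstream of ADH1 they held 55 and 40 (7.28 and 6.38), and at ZPS1 36 and 24 (18.4 and 14.8). For these 6 places the ratio in each run lay within the interval of the other. Taken alone, the first run called 20 windows (0.472% of those tested) and the second 11 (0.262%). Of the 36, 17 were called in the first run, 10 in the second and 9 in both, and in 25 both runs had intervals above 1. The lower runs were thin at RPS29A (11 and 2), ZRC1 (10 and 3) and ZAP1 (8 and 3).

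**Figure D4:**
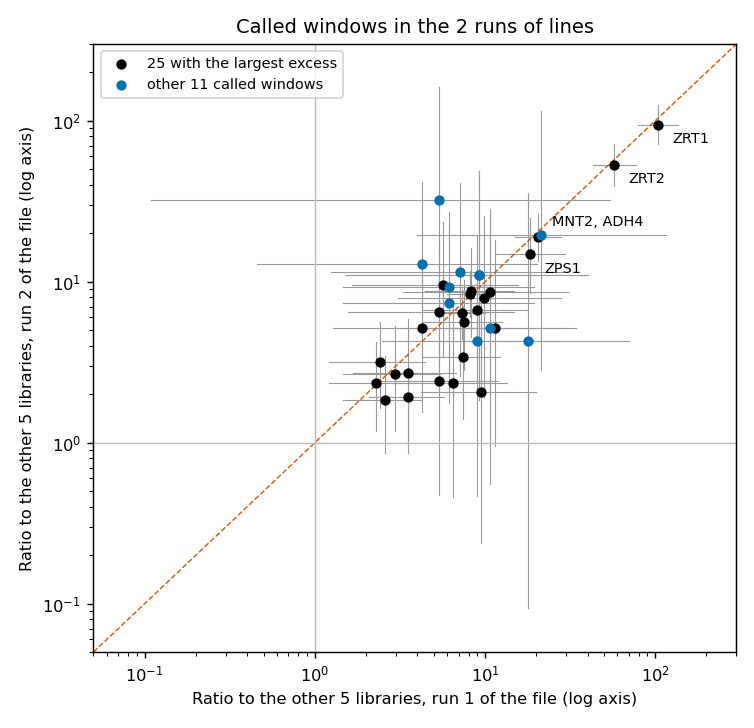
Ratio of the Zap1 share to the pooled others in the first (x) and second (y) run of lines for the 36 called windows (log axes), with 95% intervals as grey lines cut at the frame; black marks the 25 with the largest excess and blue the other 11, and the dashed line marks equal ratios. All points lie above 1 on both axes, while the intervals reach 1 in at least 1 run for 11 windows.

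Insertions in the first 6 windows were backed by more reads, a measure that the comparison of shares did not use. The median was 165.5 reads per insertion there, 26 in the other 30 called windows and 20 outside. Of the positions of the second run in the first 6 windows, 65.2% also occurred in the first run, against 13.1% in the other called windows and 1.78% outside. Repeated positions entered the shares as separate insertions, and windows with more insertions share more positions, so these percentages are a description and no further evidence. The 576 insertions at ZRT1 occupied 290 positions, with at most 4 at any one, and 156 of the positions occurred in both runs. Whether a repeated position is a separate event or the same event read again cannot be told apart in these files. With each position counted once per library, the ratio fell to 45.8 at ZRT1, 28.4 at ZRT2, 13.3 at MNT2 and ADH4 and 10.7 at ZPS1, all still called, and the number of called windows fell to 18. With insertions closer than 5 bp merged, the ratio was 6.06 at ZRT1, 3.27 at ZRT2, 5.14 at MNT2 and ADH4, 1.97 at ATG41, 3.00 upstream of ADH1 and 4.23 at ZPS1. All but ATG41 of these were still called, among 6 windows in all. At the densest places this merging joins long chains of neighbouring insertions into 1, so it sets a ceiling on the count.

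By chromosome, the Zap1 library was fuller than the pooled others on VII (13.7% against 10.6%), XII (11.4% against 7.73%) and XVI (8.60% against 6.41%), and to a lesser extent on X (ratio 1.16, 1.08 to 1.25), XIV (1.13, 1.06 to 1.21) and XV (1.17, 1.11 to 1.23). On X the Ino4 share was larger than that of Zap1 (6.0% against 5.11%), and on XIV that of Sfp1 was (6.46% against 6.04%). On XV Sfp1 came close (9.19% against 9.26%). Rgt1 had the lowest share of the others on X, XIV and XV, at 1.86%, 2.10% and 4.39%. On VII, 35.0% of the Zap1 insertions lay in the 4 called windows. Ratios without the insertions of called windows kept the library totals whole. Such a ratio was 0.847 (0.802 to 0.894) on VII, beside 1.28 with them. It was 1.16 (1.10 to 1.23) on XII, beside 1.47, and 1.22 (1.15 to 1.30) on XVI, beside 1.34. Called windows held 10.96% of Zap1 insertions but 0.920% of the others, so whole totals lowered these ratios. Whether Zap1 was lower on the rest of VII, or the ratio on XVI fell, is therefore not shown. Zap1 was lower on VI (1.50% against 3.49%), VIII (3.22% against 6.13%), IX (2.48% against 3.85%) and IV (11.7% against 15.5%), and less so on XIII (ratio 0.874, 0.821 to 0.929) and V (0.926, 0.862 to 0.994). On IV and VIII the highest share among the others was that of Rgt1, at 33.8% and 19.3% of its insertions, and on VI and IX that of Leu3, at 6.06% and 6.09%.

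**Figure D5:**
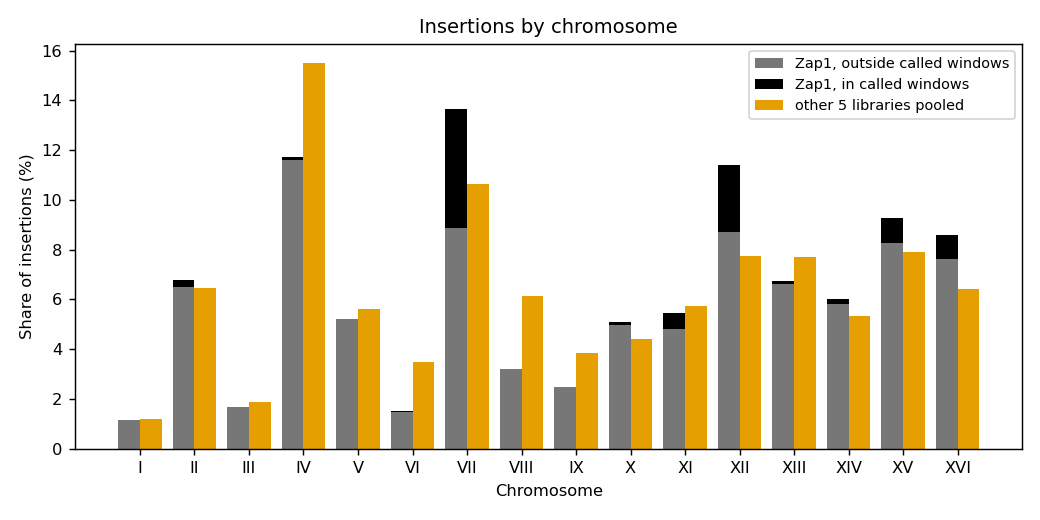
Share of insertions on each chromosome (%), for Zap1, divided into insertions outside (grey) and inside (black) its called windows, and for the other 5 libraries pooled (orange). Called windows make up a visible part of the Zap1 bars on VII and XII, and the orange bars are higher on IV, VI, VIII and IX.

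Upstream regions held 57.8% of the Zap1 insertions that could be placed (57.0 to 58.6) and 54.2% (53.4 to 55.1) of those outside the called windows, against 51.8% to 57.9% in the other libraries. Most Zap1 insertions, 14263 of 16019, lay outside the called windows, and their share in upstream regions lay within the range of the other libraries. That range is of whole libraries, with the windows called for those TFs kept in. In tested windows the median was 2 Zap1 insertions, so differences at weakly occupied sites were not detectable at this depth, and a window with 0 Zap1 insertions allows up to 1.87 per 10000.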

How the data were processed

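Per the labels, DNA was cut in separate digests with HinPI1, HpaII and Taq-alphaI, and the DNA beside Ty5 was amplified by inverse PCR. The submitters' processing notes name Novoalign, with no version or genome build in the sources used. The deposited files give, for each insertion, chromosome, position and a count of reads, with no normalization by the authors. Here 1 line was 1 insertion and reads were used only to describe insertions and in 1 alternative. Reads carry no molecular identifiers, so intervals cover counting error only.

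Windows of 1000 bp and upstream regions of at most 700 bp with at least 10 insertions were tested by one-sided Fisher's exact test with Benjamini-Hochberg adjustment over all tested (SciPy 1.17.1, pandas 2.3.3). Intervals are exact at 95%. Library sizes ran from 15951 (Ino4) to 75550 (Leu3). The test was checked on simulated insertions. Gene names came from a RefSeq table of another build. In 114 segments of 100000 bp its genes matched the insertions best within 80 bp of their place, but in the 5 segments of chromosome XI past 200000 at 310 to 370 bp, so no regions were built and no genes named there. No sequence was available for use here. The named windows and regions are the 25 called with the largest excess of Zap1 insertions, plus list members; other called windows, the glycolysis list and values near the threshold were named after they were seen. Members and lists were chosen with earlier results of these data known. Alternatives changed the counting of insertions, background, totals, minimum, window and region limits, and used each run alone.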

Additional observations from a re-analysis of the deposited data

How the results depend on the processing

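No paired analysis was possible because there is 1 library per TF. Of 868 recomputed values of the 25 windows and 25 regions, 711 stayed called, 157 kept their direction without passing and 0 reversed. The windows at ZRT1, ZRT2, MNT2 and ADH4, ZPS1 and upstream of ADH1 (5 windows) were called in every alternative that gave a value. So were the regions of ZRT1, ZRT3, ADH4, MNT2, ZPS1, REH1 and ZAP1 with LOG1 (7 regions). The region of ZAP1 with LOG1 gave 15 values, where each other region of these gave 18. It gave none with insertions within 5 bp merged or with at least 2 reads. The 36 called windows became 18 with each position counted once, 6 with insertions within 5 bp merged, 22 without Rgt1 in the background, 19 with library totals taken only from windows no TF was called in, 20 and 11 in the first and second run alone, and 21 at an adjusted p under 0.01. They became 53 without Sfp1, 43 without Ino4 and 40 with the 5 libraries weighted equally. Totals from uncalled windows moved the median ratio of tested windows from 1.02 to 0.820. These windows held 75.1% of Zap1 insertions, but 27.2% of those of Rgt1 and 55.2% of those of Leu3, the largest library. For Eds1, Ino4 and Sfp1 they held 74.35%, 80.55% and 78.15%. The share of Zap1 insertions in called windows, 10.96%, became 6.31% with each position once, 1.18% after merging, 11.8% with at least 2 reads, 9.62% with the other totals, and 10.46% and 8.53% in the runs. The 26 called regions became 10 after merging, 46 without Sfp1, 16 in the second run, and 2 when only chromosomes I to V were tested, an alternative chosen after seeing the data, as were the stricter threshold and the test of VI to XVI alone (34 windows, 24 regions). The 12 called zinc regions became 4 after merging. Apart from fewer insertions or windows by construction, the cause was not tested. Regions of fewer than 10 insertions under an alternative gave no value. Depth limits the weaker places most, since 11 called windows held fewer than 10 Zap1 insertions.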
